A study of Mus musculus with 15 samples.

Results

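The collagen genes of mouse colon were followed across tumour tissue, tissue next to a tumour and colon of single mutant and wild type mice. A gene was counted as a collagen gene when its array annotation gave a single symbol of the form Col, a number, the letter a and a number. There were 42 such genes among the 18193 genes measured. Each was represented by 1 probe set, the one with the highest mean over all 15 arrays. They comprised 11 fibrillar chains, 8 chains of basement membranes (type IV and the related types XV and XVIII), 9 fibril-associated chains (FACIT) and 14 others. Col21a1, Col6a6 and Col28a1 were not analysed here.

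RNA was extracted from colon tissue of male mice 3 months old on a mixed C57BL/6 and 129 background. It was read on Affymetrix Mouse430_2 arrays, 15 in total, and each of 5 groups had 3. The tumour group and the adjacent group, which is tissue labelled normal beside a tumour, both came from APC/Olfm4 double mutants (APC+/-/Olfm4-/-), so both carry the heterozygous APC mutation and lack Olfm4. The Olfm4 mutant group was APC+/+/Olfm4-/-, the APC mutant group APC+/-/OLFM4(+/+) and the wild type group APC+/+/Olfm4+/+. The labels do not name the APC allele. The sample titles give 2 animals for the double mutants, of which one supplied replicate 1 and the other replicates 2 and 3 of both tissues, although 3 mice per category are described. Arrays of one animal are not independent, so p-values that compare these groups with the other groups are too small to that extent. In tumours against adjacent tissue both sides come from the same 2 animals, and the main fit ignores this pairing. Its p-values there may be too small or too large. The title of Olfm4 mutant replicate 3 combines the final digits of the 2 mice behind replicates 1 and 2, so whether it is a separate mouse is not clear, and p-values measure the spread between these samples.

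Collagens are extracellular proteins built from 3 chains wound into a triple helix. Fibrillar collagens form the tensile fibrils of connective tissue, FACIT collagens sit on the surface of such fibrils, and type IV collagen forms the sheet under epithelia and around muscle, vessels and nerves. Other members make beaded filaments, anchor epithelia or span the cell membrane. In the colon most fibrillar collagen comes from fibroblasts, and smooth muscle cells, endothelial cells and epithelial cells also make basement membrane chains. In whole tissue, fewer cells of a type and less RNA per cell cannot be told apart.

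All values below are log2 expression as normalised by RMA, differences are first group minus second, and a gene was called when its adjusted p from limma over all genes was below 0.05. A level on this scale cannot be compared between genes. Arrays of one group correlated at 0.9718 to 0.9952 over genes. The array's Olfm4 signal lay between 2.97 and 3.32 on all 15 arrays, wild type included, so it does not check the Olfm4 labels. The 3-prime minus 5-prime difference of the added bacterial control RNAs, a measure of labelling, averaged 5.01 ± 0.255 in tumours, 4.10 ± 0.301 in adjacent tissue, 2.64 ± 0.525 in Olfm4 mutants, 2.16 ± 0.203 in APC mutants and 1.99 ± 0.083 in wild type (log2, SD, n = 3 each). The Gapdh 3-prime minus 5-prime difference, measured in the sample RNA itself, was 4.29 to 4.94 in tumours, 3.58 to 4.39 in adjacent tissue and 0.56 to 0.97 on the other arrays, except for 2.76 in Olfm4 mutant replicate 2. The Gapdh difference moved with each comparison of a double mutant tissue with wild type or a single mutant. Its part in those results was not tested. The bacterial control difference moved in the same comparisons, so RNA quality and labelling cannot be told apart here. Between tumours and adjacent tissue the bacterial control difference did not overlap (4.73 to 5.22 against 3.91 to 4.45), while the Gapdh ranges did. The part of the Gapdh difference in that comparison was not tested either. The array numbers in the labels follow the groups, so number and group cannot be told apart. Of 5 colon markers, 5 were lower in tumours than in adjacent tissue, among them the intestinal transcription factor Cdx2 and the water channel Aqp8. Their mean level was 9.86 to 10.32 in tumours against 12.56 to 12.68 in adjacent tissue.

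3 arrays stood apart from their groups in ways that touch the collagen genes. Adjacent replicate 3 had high levels of genes that were high in tumours, among them the Wnt inhibitor Wif1 (11.91 to 12.02 in tumours, against 6.15, 5.95 and 9.89 in adjacent tissue) and the transcription factor Sox2 (11.62 to 11.93 in tumours, against 5.73, 5.44 and 9.59 in adjacent tissue). These 2 genes were chosen after their values were seen. In tumour replicate 1 the mean level of 12 smooth muscle markers was 9.86, against 8.32 and 8.40 in the other tumours. In wild type replicate 1 it was 13.1, against 11.67 and 11.83 in the other wild type arrays.

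In tumours against adjacent tissue, 15 of the 42 collagen genes were called, 12 higher and 3 lower. That is 35.7% of them, beside 28.1% of all genes tested. Of all genes, 14.3% were called higher and 13.8% lower. The median log2 difference was 0.27 over the collagen genes and 0 over all genes. The arrays of the 2 tissues did not overlap for 16 collagen genes that were higher and 3 that were lower in tumours, beside 45.9% of all genes (23.6% higher, 22.3% lower). Most calls were of genes with a low mean signal over the 15 arrays: 13 of the 15 were among the 29 collagen genes whose mean was below the median gene mean of 8.39. The fibrillar chains Col1a1, Col1a2, Col3a1 and Col5a1 and the type VI chains were not called. Of the FACIT chains, 5 of 9 were higher, with a median difference of 1.56, and of the fibrillar chains 4 of 11 (median 0.30). Basement membrane chains were split, with 1 higher and 2 lower of 8 (median 0.01). Of the 14 others, 2 were higher and 1 lower (median 0.15). Here and below, counts under other settings are given without the share of all genes called there. They do not separate collagen genes from a general change in calls. With the replicate number as a block the count was 18, and with the arrays of an animal averaged it was 13. With the bacterial control difference as a covariate it was 9, and the calls of Col2a1, Col5a2, Col5a3, Col17a1, Col23a1 and Col24a1 were lost. That difference did not overlap between the 2 tissues, so tissue and this measure cannot be told apart.

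**Figure D1:**
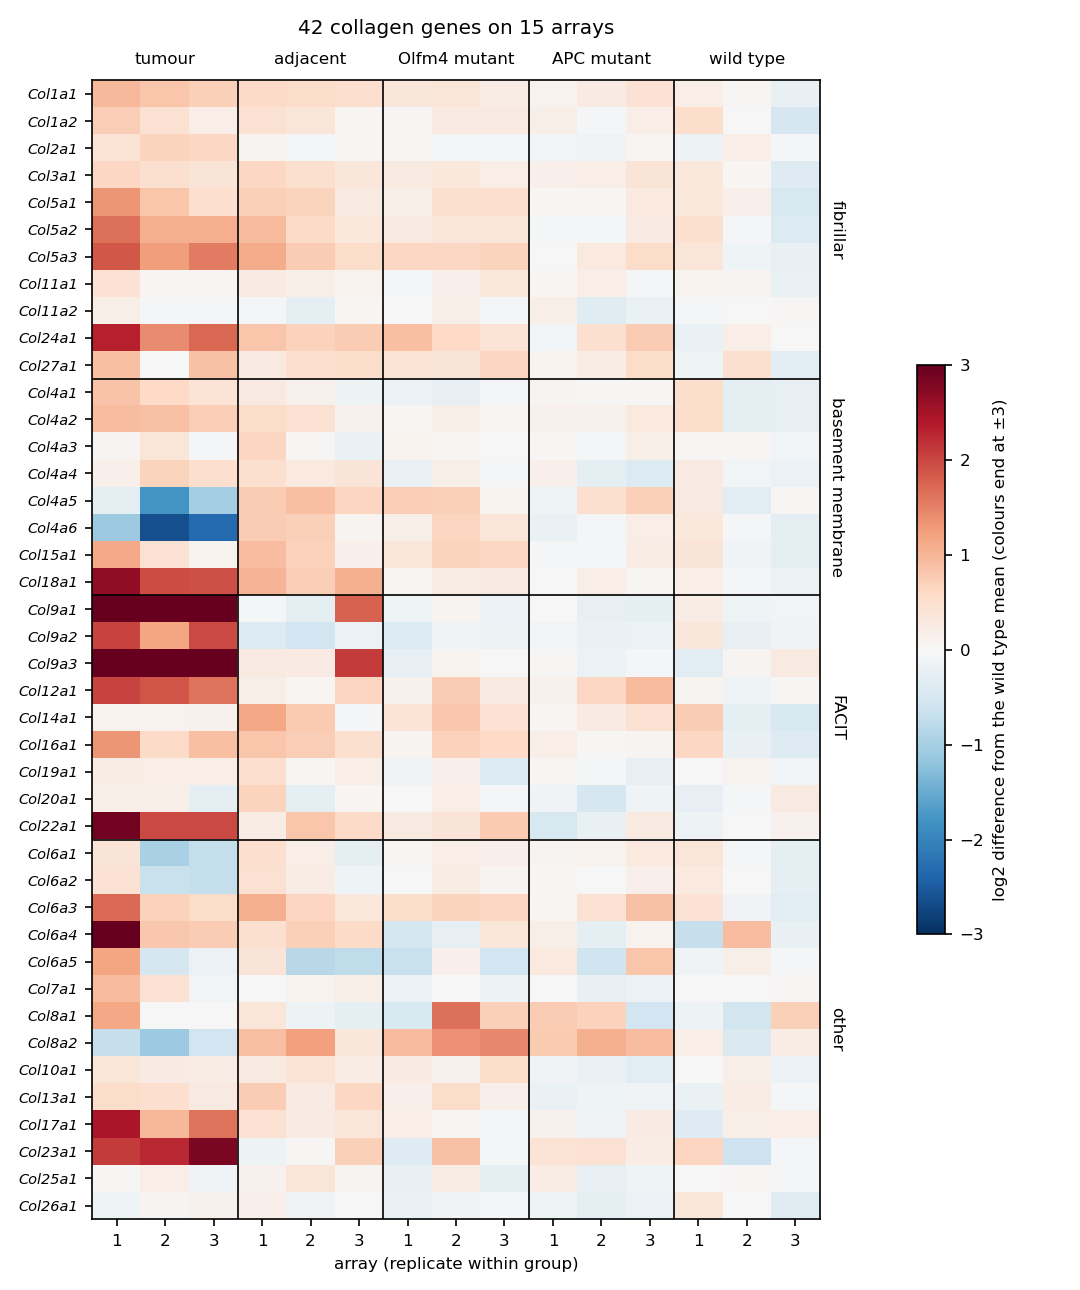
Log2 expression of 42 collagen genes (rows, by type) on 15 arrays (columns, by group), each shown as the difference from the gene's wild type mean; red is higher, blue lower, and colours end at ±3. Col9a1 and Col9a3 are dark red in the 3 tumours and paler red in adjacent replicate 3. Col4a6 is blue in the 3 tumours, and Col4a5 in tumour replicates 2 and 3. In tumour replicate 1 Col4a5 (7.45) is close to its wild type mean (7.75).

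**Figure D2:**
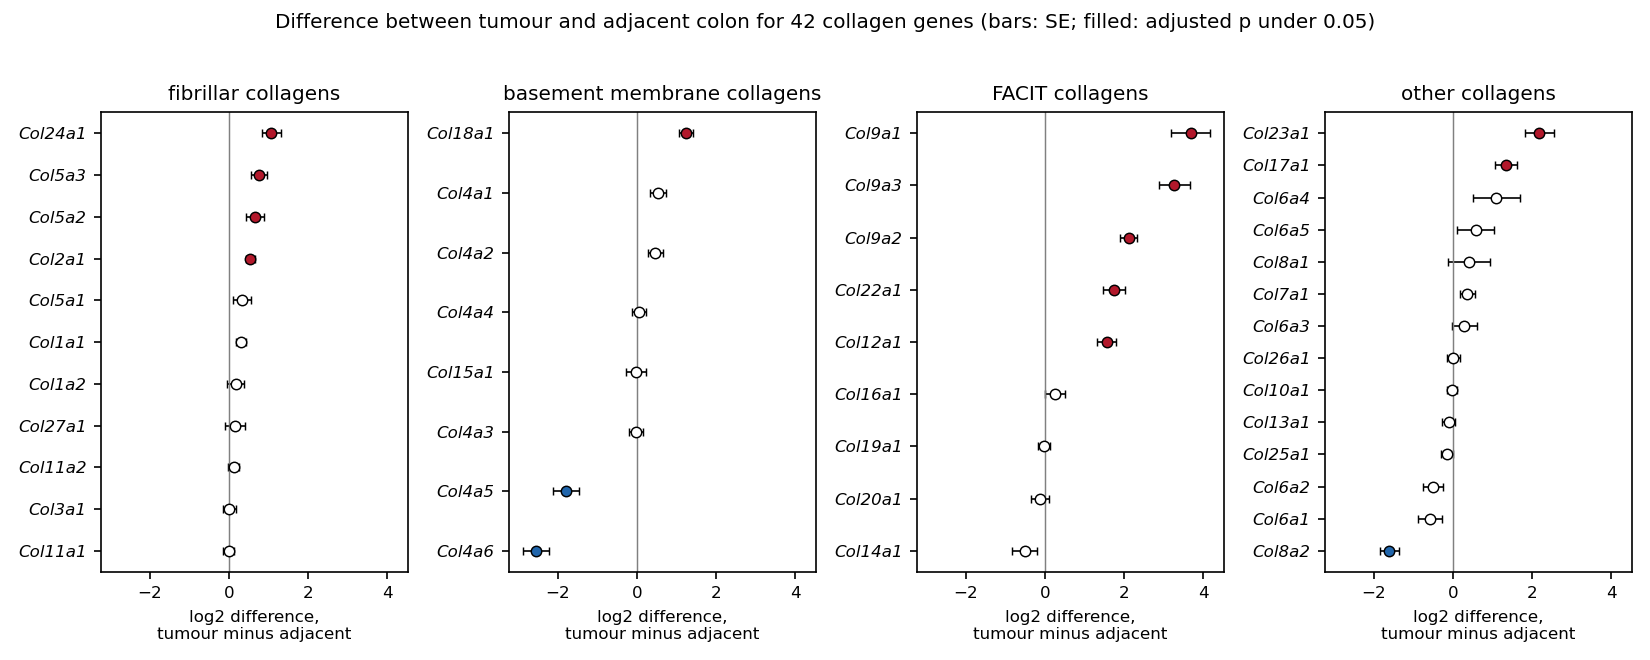
Log2 difference between tumour and adjacent colon (x axis) for each collagen gene (rows), in 4 panels by type; points are limma estimates from 3 arrays against 3, bars are 1 SE, and filled points have an adjusted p below 0.05. FACIT chains reach 3.69 (Col9a1), and the lowest value is -2.55 (Col4a6).

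The type IX chains Col9a1, Col9a2 and Col9a3 encode the 3 subunits of a FACIT collagen that decorates the fibrils of cartilage. All 3 rose in tumours. Col9a3 was 9.87, 10.46 and 10.64 in the tumours, against 6.45, 6.43 and 8.28 in adjacent tissue. The 9 single mutant and wild type arrays lay between 5.85 and 6.45. The tumours did not overlap any other group, and adjacent replicate 3 stood between the tumours and the rest. Its difference was 3.27 (SE 0.39, adjusted p = 5.2e-05), a 9.65-fold change. Col9a1 was 7.41, 9.11 and 8.94 in the tumours, against 4.26, 4.05 and 6.09 in adjacent tissue and 4.05 to 4.54 on the 9 other arrays. Its difference was 3.69 (SE 0.49, adjusted p = 0.00011), with no fold given because the adjacent levels lie near the lower end of the scale. Tumour replicate 1 was the lowest tumour for both genes. Col9a2 was 7.95, 7.10 and 7.89 in the tumours, against 5.51, 5.34 and 5.75 in adjacent tissue and 5.50 to 6.26 on the 9 other arrays. Its difference was 2.12 (SE 0.21, adjusted p = 1.4e-05), or 4.33-fold. Without adjacent replicate 3 the differences became 3.88 for Col9a3 and 4.34 for Col9a1. In adjacent tissue against wild type, none of the 3 was called (differences 0.86, 0.48 and -0.38 for Col9a3, Col9a1 and Col9a2). Without adjacent replicate 3 the value of Col9a3 there was 0.25.

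The windows around the starts of Col9a1 and Col9a2 are shown because these chains rose together in tumours of mice with an APC mutation, APC being a brake on the Wnt pathway. The APC mutant group carries an APC mutation too, and there 0 collagen genes were called against wild type, beside 0% of all genes. That count is not particular to collagen genes. The part of the Wnt pathway in the rise was not tested. Capitals mark a match to CTTTGAA or CTTTGAT, the core letters bound by TCF factors of the Wnt pathway, on either strand. Each window runs from 250 bases before to 50 after the start (RefSeq, GRCm38.p6).
Col9a1 (chr1:24177360-24177659, plus strand): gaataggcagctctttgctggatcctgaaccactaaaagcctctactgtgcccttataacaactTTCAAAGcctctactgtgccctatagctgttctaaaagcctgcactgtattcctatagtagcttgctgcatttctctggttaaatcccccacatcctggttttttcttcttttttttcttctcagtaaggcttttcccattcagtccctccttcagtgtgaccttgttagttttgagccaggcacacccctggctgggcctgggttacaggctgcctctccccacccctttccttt
Col9a2 (chr4:121039316-121039615, plus strand): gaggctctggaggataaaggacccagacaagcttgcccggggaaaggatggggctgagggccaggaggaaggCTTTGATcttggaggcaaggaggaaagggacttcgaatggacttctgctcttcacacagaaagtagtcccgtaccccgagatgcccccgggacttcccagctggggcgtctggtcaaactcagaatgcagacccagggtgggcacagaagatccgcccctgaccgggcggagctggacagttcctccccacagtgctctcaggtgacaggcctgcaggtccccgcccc
The match in the Col9a1 window lies on the reverse strand and begins at -186 from the start, and that of Col9a2 begins at -178. A second annotated Col9a1 start, with the window chr1:24194953-24195252, has no match. Among 32851 windows of all genes 8.7% hold such a match. Among the 36 windows of the 33 collagen genes with an entry it was 13.9%. The letters ACAAT, a core of SOX factor sites, occur in 31.0% of all windows and in none of the windows printed here. A match is a description of letters only. Col9a3 has no window in the table used.

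2 further FACIT chains rose. Col12a1, which coats type I fibrils, was 9.04, 8.90 and 8.65 in tumours, against 7.19, 7.07 and 7.66 in adjacent tissue and 6.89 to 7.96 elsewhere. The difference was 1.56 (SE 0.23, adjusted p = 0.00021). Col22a1, known from junctions between muscle and tendon, was 8.30, 7.38 and 7.37 in tumours, against 5.62, 6.24 and 5.97 in adjacent tissue. The difference was 1.75 (SE 0.27, adjusted p = 0.00034), and tumours lay above every other array for both genes. The probe set of Col22a1 is of a kind that can match several transcripts. Its other probe sets gave 1.12 and -0.11, and those of Col12a1 gave 0.62, 0.05 and -0.13. Col14a1, Col16a1, Col19a1 and Col20a1 were not called, with differences from -0.51 to 0.25.

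Type IV collagen has 6 chains encoded in 3 head-to-head gene pairs, and each pair is given in turn. Col4a1 and Col4a2, the ubiquitous chains, had small positive differences. Col4a1 was 12.91, 12.65 and 12.47 in tumours, against 12.32, 12.18 and 11.90 in adjacent tissue, a difference of 0.54 (SE 0.20, adjusted p = 0.059). Col4a2 was 12.38, 12.32 and 12.18 in tumours, against 11.99, 11.91 and 11.58 in adjacent tissue, a difference of 0.47 (SE 0.19, adjusted p = 0.085). The arrays did not overlap for either gene, and neither was called. A second probe set of Col4a1 was 12.14, 11.84 and 11.61 in tumours, against 11.11, 11.03 and 10.93 in adjacent tissue. Its difference was 0.84, called when the most variable probe set of each gene was used (adjusted p = 0.00055), and in adjacent tissue against wild type it gave 0.52 beside 0.08. With the replicate number as a block the adjusted p of the probe set used was 0.027 for Col4a1 and 0.046 for Col4a2. That block counts 2 animals as 3 pairs, and with the arrays of an animal averaged the adjusted p was 0.17 for Col4a1 and 0.24 for Col4a2. The starts of these 2 genes are 21 bases apart on opposite strands of chromosome 8, and the window of Col4a1 is shown with the 78 bases it shares with the window of Col4a2 in capitals.
Col4a1 (chr8:11312777-11313076, minus strand): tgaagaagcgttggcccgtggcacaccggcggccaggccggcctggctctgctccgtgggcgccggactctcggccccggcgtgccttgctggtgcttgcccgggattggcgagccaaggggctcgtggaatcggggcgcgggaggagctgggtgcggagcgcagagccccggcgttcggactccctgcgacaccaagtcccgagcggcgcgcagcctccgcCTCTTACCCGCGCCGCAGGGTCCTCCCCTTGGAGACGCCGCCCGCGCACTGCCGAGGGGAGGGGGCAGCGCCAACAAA
Col4a3 and Col4a4, the pair known from kidney and inner ear, were not called (differences -0.03 and 0.05).

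Col4a5 and Col4a6 encode chains that together form a network in the basement membrane of smooth muscle, and both fell in tumours. Col4a6 was 5.97, 4.43 and 4.73 in tumours, against 7.84, 7.77 and 7.15 in adjacent tissue and 6.80 to 7.72 on the 9 other arrays. The difference was -2.55 (SE 0.33, adjusted p = 9.5e-05), or 5.85-fold lower. Col4a5 was 7.45, 5.96 and 6.73 in tumours, against 8.51, 8.65 and 8.39 in adjacent tissue and 7.44 to 8.50 on the 9 other arrays. The difference was -1.80 (SE 0.33, adjusted p = 0.0012). Tumour replicate 1 lay within the wild type range of 7.44 to 8.02. For both genes tumour replicate 1 was the highest tumour. Second probe sets of both genes also gave negative values, -0.97 for Col4a5 and -0.88 for Col4a6. Smooth muscle markers moved with this pair: 12 of 12 were called lower in tumours, with differences from -4.37 to -1.01. Their mean level was 8.32 to 9.86 in tumours, against 11.72 to 12.25 in adjacent tissue. Tumour replicate 1 was the highest tumour in this list too. The part of smooth muscle content in the fall of Col4a5 and Col4a6 was not tested.

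The starts of Col4a6 and Col4a5 lie 1343 bases apart on chromosome X, on opposite strands, and the 2 windows do not overlap. They are shown because the pair moved together, with matches to GGGCGG (a GC box, either strand) in capitals.
Col4a6 (chrX:141474027-141474326, minus strand): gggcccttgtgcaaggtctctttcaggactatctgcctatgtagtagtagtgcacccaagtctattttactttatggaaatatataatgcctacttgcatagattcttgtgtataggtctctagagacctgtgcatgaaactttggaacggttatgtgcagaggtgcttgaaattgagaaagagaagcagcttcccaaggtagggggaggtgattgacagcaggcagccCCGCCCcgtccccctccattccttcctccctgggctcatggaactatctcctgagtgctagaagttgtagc
Col4a5 (chrX:141475169-141475468, plus strand): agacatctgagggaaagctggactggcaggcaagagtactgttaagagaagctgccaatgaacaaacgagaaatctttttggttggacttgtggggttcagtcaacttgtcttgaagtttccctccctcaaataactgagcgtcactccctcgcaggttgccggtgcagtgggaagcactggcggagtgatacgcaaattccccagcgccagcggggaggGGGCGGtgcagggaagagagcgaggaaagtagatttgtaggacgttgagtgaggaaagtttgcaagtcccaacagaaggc
The match begins at -21 in Col4a6, on the reverse strand, and at -30 in Col4a5. Such a match occurs in 35.7% of all windows and in 61.1% of the collagen windows, so the match is common in this family.

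Col18a1 and Col15a1 encode the multiplexins, proteoglycans of basement membrane zones whose ends are released as endostatin and a related fragment. Col18a1 was 12.13, 11.42 and 11.39 in tumours, against 10.49, 10.19 and 10.53 in adjacent tissue, 9.51 to 9.73 in Olfm4 mutants, 9.48 to 9.65 in APC mutants and 9.30 to 9.66 in wild type. Tumours lay above adjacent tissue, and adjacent tissue above all 9 remaining arrays. The difference between tumours and adjacent tissue was 1.24 (SE 0.18, adjusted p = 0.00026). Its second probe set gave 1.33. Col15a1 differed by -0.02 and was not called.

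**Figure D3:**
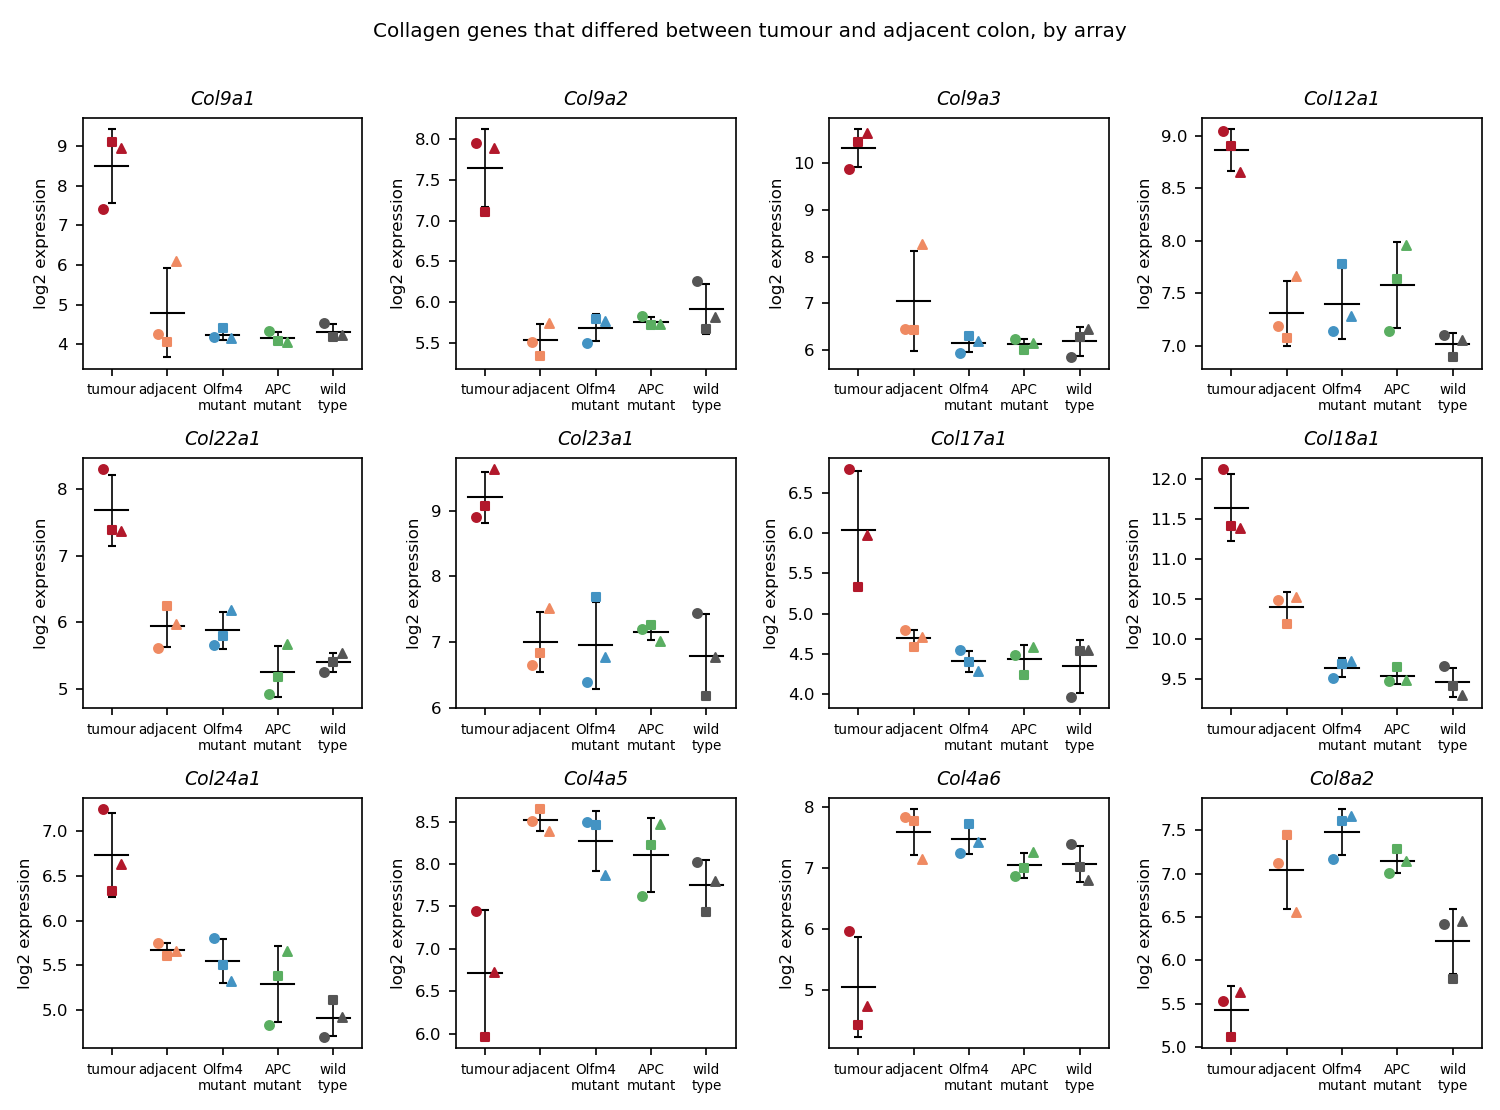
Log2 expression of 12 collagen genes called in tumour against adjacent colon, by group (x axis) and array; symbols are replicates 1 (circle), 2 (square) and 3 (triangle), the horizontal line is the group mean and bars are 1 SD (n = 3). Adjacent replicate 3 is raised for Col9a1 (6.09) and Col9a3 (8.28), and Col18a1 is higher in adjacent tissue than in the 3 groups to its right.

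The main fibrillar chains, of types I and III, were not called between tumours and adjacent tissue. Col1a1, a chain of type I collagen, was 12.99, 12.85 and 12.73 in tumours, against 12.58, 12.57 and 12.52 in adjacent tissue (difference 0.30, SE 0.12, adjusted p = 0.097). Its partner chain Col1a2 was 12.54, 12.27 and 12.01 in tumours, against 12.27, 12.17 and 11.87 in adjacent tissue (difference 0.17, SE 0.22, adjusted p = 0.63). The 2 tissues did not overlap for Col1a1 and overlapped for Col1a2. Col3a1, the chain of type III collagen, was 13.30, 13.14 and 13.05 in tumours, against 13.30, 13.15 and 13 in adjacent tissue, with a difference of 0.01 (SE 0.16). Col1a2 has a second probe set that gave 0.76 and was called when the most variable probe set of each gene was used (adjusted p = 0.023). The second probe sets of Col1a1 and Col3a1 gave 0.51 and 0.12.

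Type V collagen sits inside type I fibrils and limits their width. Col5a1 was 10.75, 10.25 and 9.93 in tumours, against 10.13, 10.08 and 9.69 in adjacent tissue, and was not called (difference 0.34, adjusted p = 0.32). Col5a2, whose gene neighbours Col3a1, was 11.95, 11.40 and 11.39 in tumours, against 11.25, 10.89 and 10.62 in adjacent tissue. It was called by a narrow margin (difference 0.66, SE 0.23, adjusted p = 0.044), and that call was lost without any 1 of tumour replicates 1, 2 and 3 or adjacent replicates 2 and 3 (adjusted p = 0.052 to 0.17). A second probe set of Col5a2 was 10.77, 10.45 and 10.33 in tumours, against 9.81, 9.84 and 9.92 in adjacent tissue. It also gave 0.66. Col5a3 rose by 0.76 (SE 0.20, adjusted p = 0.014), a call lost without tumour replicate 1 (adjusted p = 0.062) or adjacent replicate 3 (adjusted p = 0.063).

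Col24a1, a fibrillar chain described in developing bone, was 7.25, 6.33 and 6.63 in tumours, against 5.75, 5.6 and 5.66 in adjacent tissue. The difference was 1.07 (SE 0.24, adjusted p = 0.0049). Col2a1, the main collagen of cartilage, was 5.20, 5.46 and 5.43 in tumours, against 4.89, 4.74 and 4.84 in adjacent tissue. The difference was 0.54 (SE 0.12, adjusted p = 0.0035), at levels near the lower end of the scale of 2.56 to 15. Col11a1, Col11a2 and Col27a1 were not called, with differences from 0 to 0.16.

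Type VI collagen forms beaded filaments around cells. The values of its chains depended on 1 tumour array, the only tumour of its animal. Col6a1 was 12.35, 10.98 and 11.25 in tumours, against 12.47, 12.17 and 11.68 in adjacent tissue (difference -0.58, SE 0.30, adjusted p = 0.18). Col6a2, its neighbour in the genome, was 12.35, 11.27 and 11.22 in tumours, against 12.38, 12.16 and 11.80 in adjacent tissue (difference -0.50, SE 0.26, adjusted p = 0.18). Tumour replicate 1 lay within the adjacent range for both genes and the other 2 tumours below it. Without tumour replicate 1 the differences were -1.0 for Col6a1 and -0.87 for Col6a2. The 2 tumours left are pieces of 1 animal, so array and animal cannot be told apart here. Col6a3 was 11.17, 10.15 and 10.03 in tumours, against 10.57, 10.12 and 9.79 in adjacent tissue, with a difference of 0.29, or -0.07 without tumour replicate 1. Col6a4 was 9.72 in tumour replicate 1 and 7.02 and 6.98 in the others, against 6.70 to 6.93 in adjacent tissue, and was not called. Col6a5 was not called either (difference 0.58, adjusted p = 0.41), and its adjusted p was 0.041 with the replicate block and 0.52 with the arrays of an animal averaged. The same tumour array had the highest smooth muscle level of the 3 tumours. The part of that in the type VI values was not tested.

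**Figure D4:**
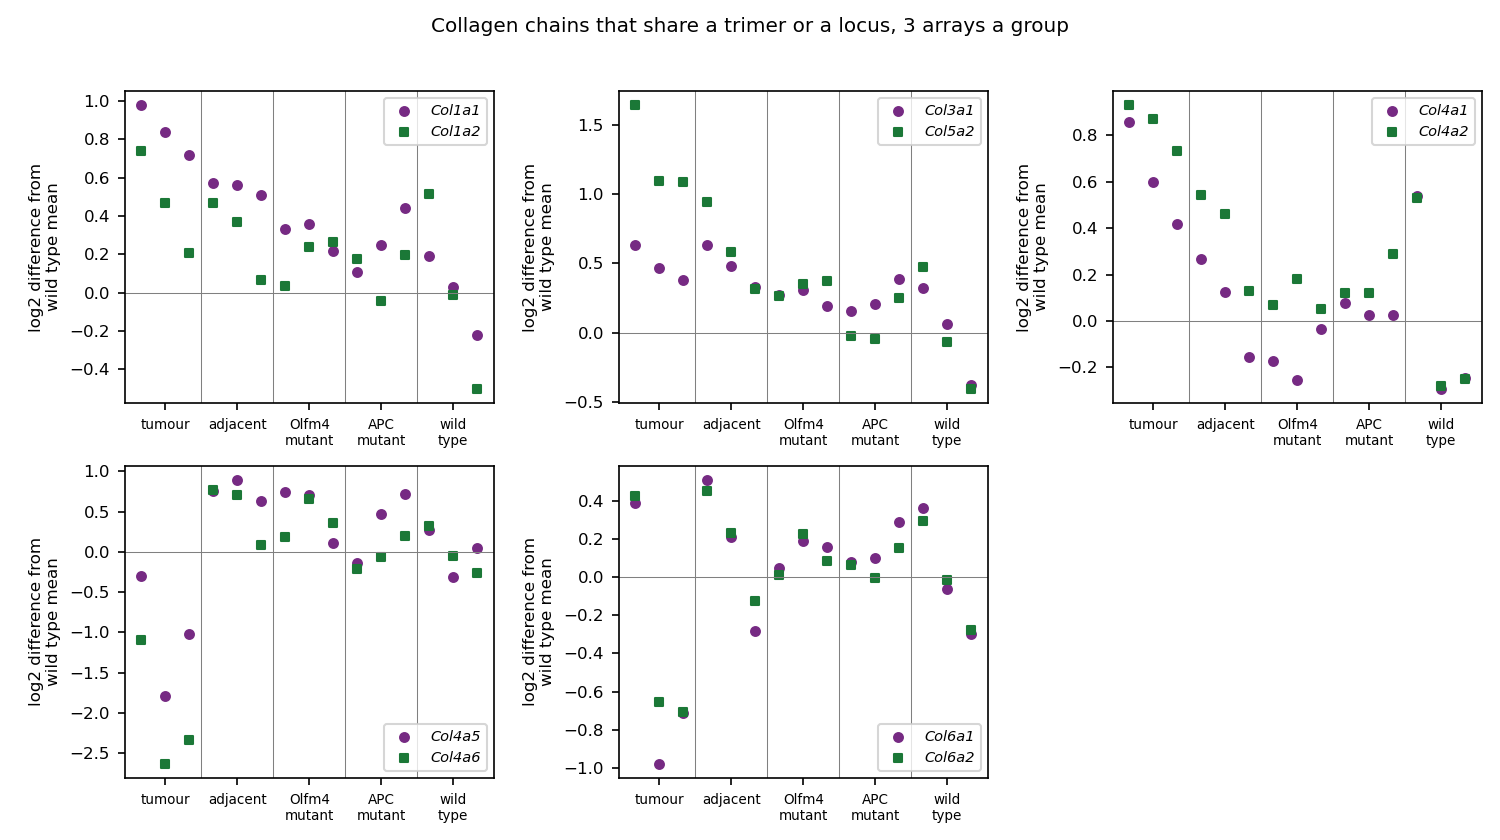
Log2 difference from the wild type mean (y axis) for pairs of collagen chains that share a molecule or neighbour each other in the genome, with 3 arrays in each of 5 groups along the x axis (replicates 1 to 3 from left to right). In tumours Col4a5 and Col4a6 lie low while Col4a1 and Col4a2 lie high, and Col6a1 and Col6a2 are low in tumour replicates 2 and 3 and not in replicate 1.

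Among the transmembrane collagens, Col23a1 and Col17a1 rose in tumours. Col23a1 was 8.90, 9.07 and 9.63 in tumours, against 6.65, 6.84 and 7.52 in adjacent tissue and 6.18 to 7.68 on the 9 other arrays, a difference of 2.19 (SE 0.36, adjusted p = 0.00058). Its other probe sets gave 2.71 and 0.39, and on the dimmer of these the tumours (5.10 to 5.75) lay within the range of the other arrays (4.64 to 6.17). Col17a1, a part of the hemidesmosomes that hold epithelial cells to the basement membrane, was 6.80, 5.33 and 5.98 in tumours, against 4.79, 4.58 and 4.71 in adjacent tissue. The difference was 1.35 (SE 0.28, adjusted p = 0.0031). With the probe sets used, tumours lay above every other array for both. Col13a1 and Col25a1, also transmembrane chains, were not called (differences -0.11 and -0.15).

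Col8a2, a chain of the short network collagen VIII, fell in tumours. It was 5.53, 5.12 and 5.64 in tumours, against 7.12, 7.44 and 6.56 in adjacent tissue, a difference of -1.61 (SE 0.24, adjusted p = 3e-04). Its levels in the other groups were 7.17, 7.60 and 7.66 in Olfm4 mutants and 7.01, 7.28 and 7.15 in APC mutants, against 6.42, 5.79 and 6.45 in wild type. Wild type and tumour were the lowest groups. Its partner chain Col8a1 ranged from 8.85 to 11.06 over the arrays and was not called. Col7a1, which makes the fibrils that anchor epithelia, and Col10a1 and Col26a1 were not called either, with differences of 0.36, -0.03 and 0.01. Col7a1 was called only without tumour replicate 3 (0.62, adjusted p = 0.0093).

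Genes that act on collagens were counted in the same comparison, from lists drawn up by function. The share of all genes called was 28.1%, as above. Of 19 genes for hydroxylation and folding of collagen chains, 4 were higher and 1 lower in tumours (26.3% called). P4ha2, a subunit of prolyl 4-hydroxylase, rose by 1.23 (adjusted p = 0.0083), and the lysyl hydroxylase Plod3 and P3h4 rose by 0.69 each. P3h2 fell by 0.86. Of 10 genes for procollagen processing and crosslinking, Lox was higher and Loxl1 lower (20% called). Lox, which crosslinks fibrillar chains, was 10.08, 10.23 and 10.18 in tumours, against 8.29, 8.42 and 9.02 in adjacent tissue (difference 1.59, adjusted p = 6.6e-05), and Loxl1 fell by 0.91. Of 15 fibril-associated proteins, 2 were higher and 6 lower (53.3% called). Thbs2 rose by 2.65 (adjusted p = 6.4e-06), while the small leucine-rich proteins Aspn, Ogn and Lum, which bind fibrils, fell by 2.30, 2.07 and 1.75. These 3 fell in the tissue in which 12 of 12 smooth muscle markers and 5 of 11 fibroblast markers, among them Dpt (-1.86) and Mfap5 (-3.1), were also called lower. Of the fibroblast markers 1 was called higher, Pdgfra, and the mean level of the list was 8.97 to 9.27 in tumours against 9.41 to 10.06 in adjacent tissue.

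Of 15 basement membrane partners, 6 were higher and 1 lower in tumours (46.7% called, against 28.1% of all genes). The laminin chain Lama5 rose by 1.96 (adjusted p = 4.2e-05), and Pxdn, the peroxidasin that crosslinks type IV collagen, rose by 1.77 (adjusted p = 6.4e-05). Lama1 rose by 1.57, and Lama2, a laminin chain of muscle, fell by 1.67 (adjusted p = 0.0076). Of 9 collagen receptors (44.4% called), Itga2 and Itgb1 were higher (0.89 and 0.47), and Ddr2 and Gp6 lower (-1.23 and -0.97). Of 8 proteases, 3 were higher and 2 lower (62.5% called). The collagenase Mmp13 was 11.35, 11.84 and 12.03 in tumours, against 7.16, 7.14 and 10.89 in adjacent tissue (difference 3.34, adjusted p = 0.0047). The gelatinase Mmp9 was 12.18, 12.46 and 12.38 in tumours, against 7.22, 8.06 and 10.39 in adjacent tissue (difference 3.79, adjusted p = 0.00062). Adjacent replicate 3 was again the highest adjacent array for both. The membrane-bound Mmp14 rose by 1.48, and the fibroblast protease Fap fell by 1.91. None of 8 endothelial markers was called by limma, with 2 at an unadjusted p under 0.05. Of 8 epithelial markers 4 were lower. Of 7 markers of enteric neurons and glia 4 were lower, with a mean level of 6.74 to 6.82 in tumours against 8.14 to 8.28 in adjacent tissue. The part of tissue makeup in the collagen differences was not tested.

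Set against wild type colon, tumours had 24 of the 42 collagen genes called, 21 higher and 3 lower, beside 49.4% of all genes (29.3% higher, 20.1% lower). The median difference was 0.53 for collagen genes and 0.11 for all genes. This comparison shares its tumour arrays with the one above. Of the 21 higher genes, 9 had not been called against adjacent tissue. They were Col1a1 (0.85, adjusted p = 0.0001), Col4a2 (0.84), Col5a1 (0.89), Col3a1 (0.49), Col4a1 (0.62), Col6a3 (0.98), Col6a4 (1.69), Col13a1 (0.44) and Col16a1 (0.93). The largest differences were 4.17 for Col9a1, 4.13 for Col9a3, 2.40 for Col23a1, 2.29 for Col22a1 and 2.19 for Col18a1. Col4a6, Col4a5 and Col8a2 were lower, with differences of -2.03, -1.04 and -0.79. The calls of Col3a1, Col4a1, Col4a5, Col6a3, Col6a4, Col8a2 and Col13a1 were each lost without at least 1 of tumour replicates 1 and 2 or wild type replicates 1 to 3, where the count ran from 18 to 26. With the bacterial control difference as a covariate the count was 0.

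The double mutant colon beside tumours was then compared with wild type colon. There 7 of 42 collagen genes were called, all higher, beside 27.8% of all genes, with 17.7% higher and 10.1% lower. The median difference was 0.38 for collagen genes and 0.13 for all genes, and 38 of the 42 had a positive difference, beside 11764 of 18193 genes. Col18a1 had the largest (0.94, SE 0.18, adjusted p = 0.0028), from the levels given above. Col1a1 was 12.58, 12.57 and 12.52 in adjacent tissue, against 12.20, 12.04 and 11.79 in wild type (difference 0.55, SE 0.12, adjusted p = 0.0064). Col5a3 was 8.49, 8.15 and 7.92 in adjacent tissue, against 7.74, 7.24 and 7.16 in wild type (difference 0.80, SE 0.20, adjusted p = 0.012). The 2 groups did not overlap for any of these 3 genes. Of all 18193 genes, 4758 were higher and 2539 lower in adjacent tissue without overlap.

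Col3a1 was 13.30, 13.15 and 13 in adjacent tissue, against 12.99, 12.73 and 12.29 in wild type (difference 0.48, SE 0.16, adjusted p = 0.038). Col24a1 was 5.75, 5.6 and 5.66 in adjacent tissue, against 4.70, 5.11 and 4.92 in wild type (difference 0.76, SE 0.24, adjusted p = 0.034). Col13a1 was 8.92, 8.40 and 8.76 in adjacent tissue, against 7.96, 8.38 and 8.11 in wild type (difference 0.55, SE 0.16, adjusted p = 0.023). Col8a2 completed the list (0.82, SE 0.24, adjusted p = 0.024). Fibrillar chains supplied 4 of the 7 calls and FACIT chains 0 of 9. The count was 3 without adjacent replicate 1, 4 without adjacent replicate 2 or wild type replicate 3, and 11 without wild type replicate 1. Col18a1, Col1a1 and Col5a3 were called with each array left out, and Col3a1, Col24a1, Col13a1 and Col8a2 were not. Adjacent replicates 2 and 3 share an animal, so leaving out arrays does not show whether a call holds over animals. With the 3-prime minus 5-prime difference as a covariate no collagen gene was called. That covariate differed between the 2 groups as given above, so the group and this measure cannot be told apart.

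The single mutants were each compared with wild type colon. In APC mutants against wild type, 0 collagen genes were called by limma, beside 0% of all genes, with 3 at an unadjusted p under 0.05. The largest difference was 0.93 for Col8a2 (unadjusted p = 0.0021, adjusted p = 0.53). In Olfm4 mutants against wild type, 1 was called, beside 7.92% of all genes (5.42% higher, 2.5% lower). It was Col8a2, 2.39-fold higher (difference 1.26, SE 0.24, adjusted p = 0.013), with no overlap of arrays. Of all 18193 genes, 3093 were higher and 1827 lower in Olfm4 mutants without overlap. The call of Col8a2 was lost without Olfm4 mutant replicate 2 or 3 or wild type replicate 2 (adjusted p = 0.053 to 0.061). Without wild type replicate 1 the count was 4. With the bacterial control difference as a covariate it was 0.

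Adjacent tissue was next set against APC mutant colon, both with the APC mutation, and 4 collagen genes were called, all higher, beside 17.3% of all genes (9.88% higher, 7.45% lower). Col18a1 differed by 0.86 (adjusted p = 0.0086), Col13a1 by 0.69 (adjusted p = 0.012), Col10a1 by 0.51 (adjusted p = 0.017) and Col4a4 by 0.58 (adjusted p = 0.044). The count was 2 without adjacent replicate 2 or APC mutant replicate 3, and the call of Col4a4 was lost without any 1 of adjacent replicates 1 to 3 or APC mutant replicates 2 and 3. With the covariate the count was 0. In adjacent tissue against Olfm4 mutant colon, which both lack Olfm4, 0 were called by limma, beside 0.044% of all genes, with 4 at an unadjusted p under 0.05. Col18a1 came nearest (0.76, adjusted p = 0.079). Whether the change with Olfm4 loss depends on the APC genotype was tested in limma as an interaction, with adjacent tissue standing for the double mutant, and no gene was called. Among collagen genes 3 had an unadjusted p under 0.05, and the lowest adjusted p was 0.32, for Col8a2 (-1.37).

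Several probe sets exist for 27 of the 42 genes, and they show how far a value rests on the choice of one. For the 10 genes called in tumours against adjacent tissue that have others, 13 of 15 other probe sets had the same sign. The other probe sets of Col9a3 gave 4.81 and, at a mean signal of 3.42, 0.14, and one of Col9a1 gave 0.37 at a level of 3.88 to 4.50 on the 6 tumour and adjacent arrays. The second probe set of Col5a2 was 9.81, 9.84 and 9.92 in adjacent tissue, against 8.44, 8.11 and 7.82 in wild type, a difference of 1.73 beside 0.61 for the probe set used. That of Col3a1 gave 1.40 beside 0.48. For Col5a1 the probe set used gave 0.55 and a second one 0.59, at mean signals of 9.81 and 9.71, while the dimmest, with a mean signal of 7.03, gave -0.99.

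**Figure D5:**
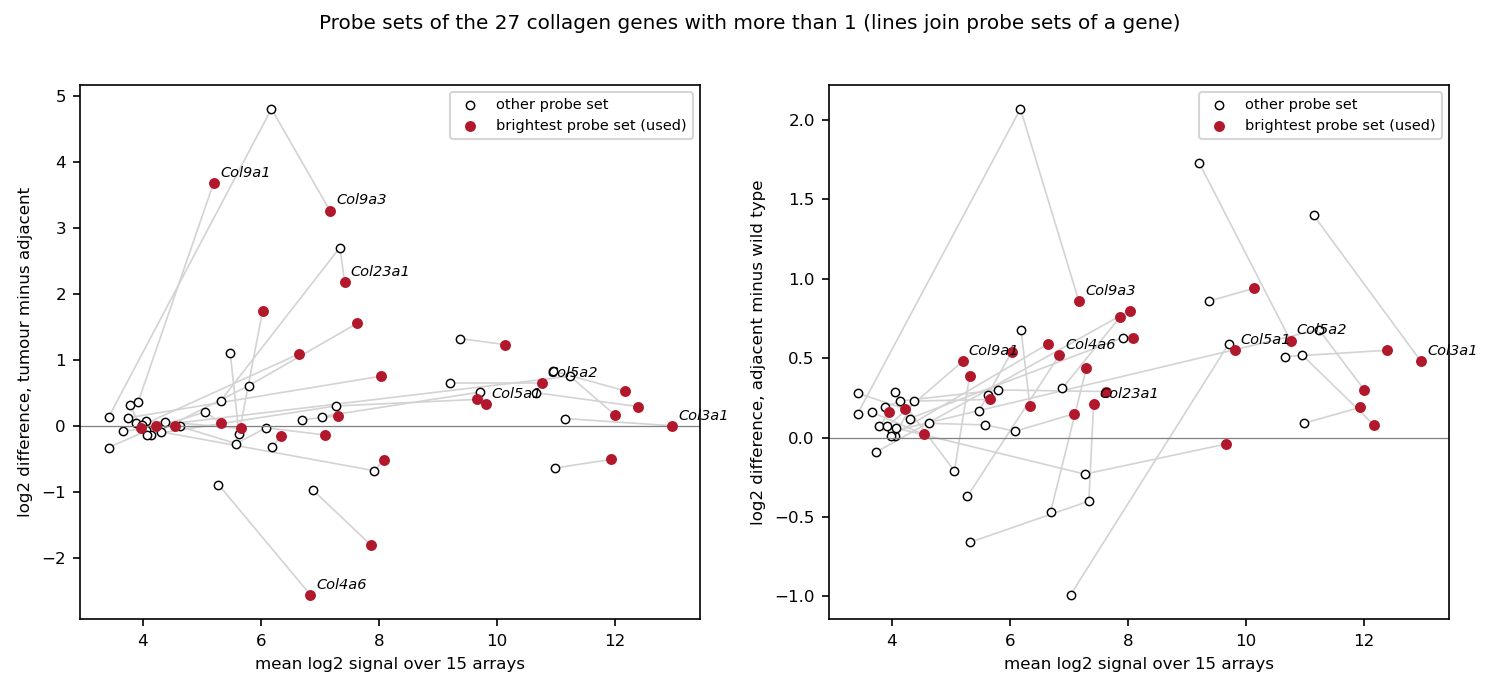
Log2 difference (y axis) against mean log2 signal over 15 arrays (x axis) for all probe sets of the 27 collagen genes with more than 1, in tumour minus adjacent (left) and adjacent minus wild type (right); filled points are the probe sets used, open points the others, and lines join probe sets of a gene. Col9a3 is positive in both of its brighter probe sets (3.27 and 4.81) in the left panel, and in the right panel Col5a1 has 2 positive probe sets (0.55 and 0.59) and 1 negative (-0.99).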

How the data were processed

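The authors deposited 1 table of log2 expression values for 45101 probe sets on 15 arrays, made with Partek 6.5 and RMA per the submitters' processing notes. The genome build behind the probe annotation is not given in the sources used here. The values ran from 2.56 to 15. Control probe sets (64) were left out. Of the rest, 34945 had 1 symbol, 932 several and 9160 none, and only the first were used. Each of 18193 genes was represented by its brightest probe set, judged by the mean of the 15 arrays. The number of arrays limits the precision.

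Differences were fitted with limma 3.58.1 in R 4.3.3 (lmFit and eBayes on 5 group means), with Benjamini-Hochberg adjustment over all genes within a comparison and a threshold of 0.05. The script was tested on simulated data. By rule, values on the arrays of the groups compared are given for Col1a1, Col1a2, Col3a1, Col5a1, Col5a2, Col4a1, Col4a2, Col6a1, Col6a2 and Col6a3, and for the called genes without overlap between groups, up to 10 per comparison with the largest absolute difference. A few further collagen genes are given in this way although that rule does not name them. From each companion list up to 4 called genes with the largest difference are named. The members and lists were chosen with earlier results of these data known.

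By their titles, tumour and adjacent arrays with the same number came from the same animal. The correlations of their deviations from the group means were 0.2812, -0.0155 and 0.1825. Numbers 2 and 3 are pieces of 1 animal, so the replicate block treats 2 animals as 3 pairs. A fit that leaves out number 1 of a tissue holds pieces of only 1 animal for that tissue. Alternatives covered the probe set, normalisation, filter, array weights, prior, arrays in the fit, animal, replicate block, spike-in covariate and each replicate left out. Promoter windows came from RefSeq (GRCm38.p6), matched by gene for 33 of the 42 genes.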

Additional observations from a re-analysis of the deposited data

How the results depend on the processing

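The counts of this section are of collagen genes and stand without the share of all genes called under the same setting. They do not separate collagen genes from a general change in calls. In tumours against adjacent tissue (15 collagen genes called), 3 were called among genes above the median mean, which leaves out dim members by construction, 9 with the spike-in covariate, 18 with the replicate block, and 13 to 15 with 1 replicate left out. The replicate block lost no call. It counts 2 animals as 3 pairs, and with the arrays of an animal averaged the count was 13. Of the 15, 9 kept their call in every alternative that held them, 4 lost it only with the spike-in covariate, and Col5a2 and Col5a3 lost it elsewhere too. In tumours against wild type (24), the counts were 8 above the median mean, 0 with the covariate and 18 to 26 with 1 replicate left out. In adjacent tissue against wild type (7), they were 4 above the median mean, 12 with array weights, 4 with only the groups compared, 0 with the covariate and 3 to 11 with 1 replicate left out. In Olfm4 mutants against wild type (1), they were 3 with the most variable probe set, 0 above the median mean, 4 with array weights, 0 with only the groups compared, 0 with the covariate and 0 to 4 with 1 replicate left out. For adjacent tissue against APC mutants (4), they were 7 with the most variable probe set, 1 above the median mean, 2 with arrays of an animal averaged, 0 with the covariate and 2 to 4 with 1 replicate left out. For adjacent tissue against Olfm4 mutants (0), they were 1 with the most variable probe set, 5 with array weights and 0 with any replicate left out. APC mutants against wild type gave 0 with any replicate left out. Signs turned in tumours against adjacent tissue for Col3a1 (-0.06 without tumour replicate 1 or adjacent replicate 3, within -0.06 to 0.09 over all left-out replicates) and Col6a3 (-0.07 without tumour replicate 1, within -0.07 to 0.51). They turned in adjacent tissue against wild type for Col13a1 (-0.30 with the covariate), Col5a1 (-0.99 with the most variable probe set), Col4a1 (-0.01 without adjacent replicate 1, -0.07 without wild type replicate 2, -0.04 without wild type replicate 3, within -0.07 to 0.35) and Col6a1 (-0.03 without adjacent replicate 1, 0 without wild type replicate 3, within -0.03 to 0.36). The cause was not tested. With cyclic loess the median of all genes was 0.07 in tumours against wild type (0.11 as deposited) and 0.09 in adjacent tissue against APC mutants (0.14 as deposited). Dim chains with levels near the lower end of the scale carry little signal over background.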
